A study of Mus musculus with 24 samples.

Results

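The RNA that macrophage-like cells hold 1 h after meeting lipopolysaccharide (LPS) was compared between a line made to overexpress Tbc1d23 and its control line. The comparison rests on 6 of the 24 arrays of the study, 3 of each line, chosen by their labels (construct and 1 h of LPS). Both groups are RAW264.7, a mouse line derived from a tumour induced by Abelson leukaemia virus. One carries a construct that overexpresses Tbc1d23, the other a construct for chloramphenicol acetyltransferase (CAT), a bacterial enzyme that serves as the control. Both grew in medium with G418, the drug that selects for such constructs, and both received 20 ng/ml LPS. Each construct is represented by 1 line, so an effect of Tbc1d23 and any other difference between these lines cannot be told apart. The sources used here do not give the promoter that drives the constructs. The design text calls the replicates biological but nothing says that they were separate cultures. If they were not, p-values reflect only technical spread.

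LPS of Gram-negative bacteria is carried by CD14 to the receptor TLR4 with its partner MD-2. The adaptors MyD88 and TRIF then switch on NF-kB, MAP kinases and interferon regulatory factors. Within the first hour macrophages transcribe immediate early factors such as Egr1, Fos and Jun, cytokines and chemokines such as Tnf, Il1b, Cxcl2 and Ccl3, and inhibitors that end the signal, such as Nfkbia, Tnfaip3 and Zfp36. Tbc1d23 belongs to the family of TBC domain proteins, many of which switch off Rab GTPases of membrane traffic, and it is known as a bridge between trans-Golgi golgins and vesicles that arrive from endosomes. The study asks what raising it does to the response of macrophages to LPS.

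A level here is log2 of a probe's processed signal minus the 75th percentile of its array, so 0 is that percentile and a difference of 1 between the lines is 2-fold. Levels are compared between lines for the same probe and never between probes. Probes were kept if all 3 arrays of either line were well above background, and each gene was represented by its brightest probe, which left 14305 genes. Differences are the Tbc1d23 line minus the CAT line, fitted with limma over all 24 arrays, ± the standard error (SE) of the fit with n = 3 arrays per line. A gene was called where its p, adjusted over all 14305 genes by Benjamini-Hochberg, was under 0.05. With 3 arrays a line the smallest p of an exact two-sided permutation test is 0.1, so calls rest on limma's model.

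Between 46.2 and 54.0% of probes were well above background on each of the 6 arrays. Across genes, which are not independent replicates, CAT arrays correlated with each other at r = 0.991 to 0.994 and Tbc1d23 arrays at 0.970 to 0.986, against 0.929 to 0.947 between the lines. The labels name no batch, so slides with consecutive serial numbers were taken as a run. By that rule Tbc1d23 replicates 1 and 2 lie in another run than Tbc1d23 replicate 3 and the 3 CAT replicates. Results below are also given from a fit that blocks on the run, and in the 1 run that both lines share. Only the Tbc1d23 line lies in both runs, so its arrays alone set the run term, which is taken as equal at all times. Both fits therefore lean on Tbc1d23 replicate 3 and are not separate checks. In the shared run Tbc1d23 replicate 3 alone stands for its line at 1 h against 3 CAT arrays, and only CAT arrays give the spread.

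The lines held different levels of 6865 of the 14305 genes (48.0%) after 1 h of LPS. Of these, 3675 (25.7% of genes tested) were higher in the Tbc1d23 line and 3190 (22.3%) lower. The difference was at least 2-fold for 2752 genes (19.2%), at least 4-fold for 789 (373 higher, 416 lower) and at least 16-fold for 114 (65 higher, 49 lower). The count at 2-fold was 1468 with normexp background correction and 1956 to 3304 under the other alternatives. The arrays of the lines did not overlap for 7863 genes (55.0%), 4150 with the Tbc1d23 arrays above and 3713 with them below. The median difference of all genes was 0.04, and 8 in 10 genes lay between -1.07 and 1.05. With a slide-run block 7399 genes were called (4238 higher, 3161 lower), and 5253 in the shared run (2881 higher, 2372 lower). Median scaling moved the median of all genes to -0.07 and gave 1205 higher and 1801 lower (40.1% higher, against 53.5%), so directions of small differences are relative to the scaling.

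**Figure D1:**
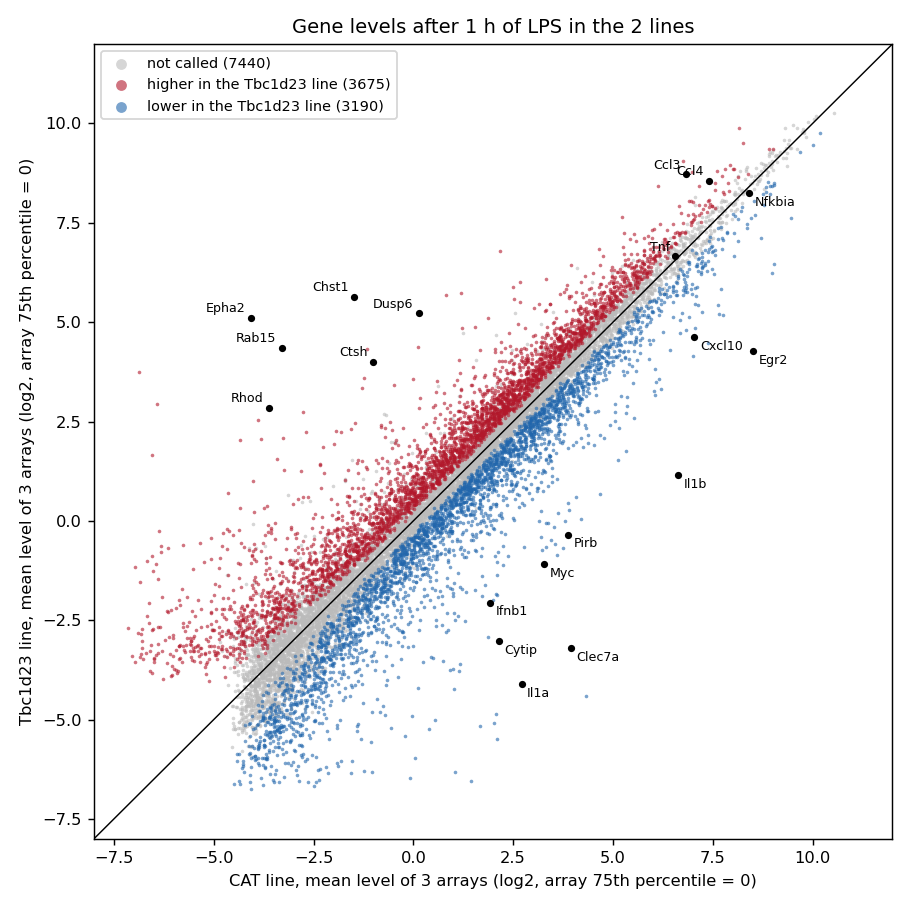
Mean level after 1 h of LPS in the CAT line (horizontal axis) and the Tbc1d23 line (vertical axis) for 14305 genes, in log2 units with the 75th percentile of each array at 0. Red points are the 3675 genes called higher in the Tbc1d23 line, blue points the 3190 called lower, grey points the rest and black points labelled genes, of which Epha2 and Clec7a lie far from the diagonal of equal levels and Tnf and Nfkbia close to it.

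A gene could be seen in 1 line and not the other. Probes of 12220 genes were well above background on all 6 arrays. A further 324 were measured on all CAT arrays and on no Tbc1d23 array, of which 260 were called lower, and 139 on all Tbc1d23 arrays and no CAT array, all 139 called higher. The other 1622 were measured on only some arrays of the second line, with 168 called higher and 294 lower. Genes of the first kinds had to differ to be kept, so their counts describe the filter as well as the cells.

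The transcript of the construct's own gene was read by 2 probes that were well above background on all 6 arrays. They are shown because the check of the targeted gene rests on them, as the first 30 bases of each 60-base probe, with mm9 positions from the files.
Tbc1d23 probe A_51_P223575, chr16:57169122-57169181: tgaaattgcaccttgtgcggtacttgatat
Tbc1d23 probe A_52_P448220, chr16:57170528-57171769: gtgcttccgggatagaaatcttggctattg
The brighter one, A_51_P223575, read 2.92, 3.02 and 3.48 on the Tbc1d23 arrays and 3.38, 3.36 and 3.14 on the CAT arrays. The lines overlapped, and the difference of -0.15 ± 0.21 was not called (95% interval -0.59 to 0.28, limma, adjusted p = 0.581). It turned to 0.21 with a slide-run block (adjusted p = 0.214), 0.19 in the shared run (adjusted p = 0.515) and 0.01 with the mean of probes (adjusted p = 0.955). The second probe, whose 60 bases span 1242 bases of the genome, read -0.23, -0.25 and -0.32 against -0.37, -0.60 and -0.36. Its difference was 0.18 ± 0.18 (adjusted p = 0.437). Another 2 probes were not well above background on any of the 6 arrays and were not tested. Of these, A_52_P448398 read -4.12, -4.08 and -4.96 on the Tbc1d23 arrays and -6.35, -6.65 and -6.96 on the CAT arrays, without overlap but with no measured level in either line. Which stretch of the transcript the construct carries is unknown here, so no probe can check the label: a probe outside that stretch would not see the construct.

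The 24 early LPS products are cytokines, chemokines, inhibitors and early factors of the first hour. They and the lists below were chosen with earlier results of these data known, so such counts describe the choice as well. Of the 24 early products, 23 were tested. The Tbc1d23 line held lower levels of 13, higher levels of 4, and 6 were not called, against 22.3% lower and 25.7% higher over all genes. The probe of the chemokine gene Cxcl1 was not well above background on all arrays of either line.

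Both forms of interleukin 1, the fever-inducing cytokines, were far below the control. Il1b, made as a precursor that inflammasomes cut, stood at 1.06, 1.05 and 1.34 on the Tbc1d23 arrays and 6.86, 6.62 and 6.41 on the CAT arrays. The lines did not overlap, and the difference was -5.48 ± 0.26, or 44.6-fold (limma, adjusted p = 4.81e-12), and -5.29 in the shared run. Il1a, the cell-associated form, read -4.45, -4.16 and -3.72 against 2.77, 2.61 and 2.78. Its probe was well above background on 1 of 3 Tbc1d23 arrays and on all CAT arrays, with a fitted difference of -6.82 ± 0.25 (adjusted p = 1.96e-13). The probe stretches behind these readings are shown with that of Tnf, whose level did not separate the lines, as the first 30 of 60 bases.
Il1b probe A_51_P212782, chr2:129190347-129190406: aggttcctataatatggatgagaattttta
Il1a probe A_51_P438283, chr2:129128725-129130459: tggacaaacactatctcagcaccacttggt
Tnf probe A_51_P385099, chr17:35336795-35336854: tgggctttccgaattcactggagcctcgaa

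Tnf, the first cytokine that macrophages release, stood at 6.60, 6.54 and 6.86 on the Tbc1d23 arrays and at 6.54, 6.55 and 6.59 on the CAT arrays. The lines overlapped, and the difference was 0.11 ± 0.14 with a 95% interval of -0.18 to 0.39 (limma, adjusted p = 0.548), -0.01 with median scaling. Il10, the anti-inflammatory cytokine, read -2.03, -2.24 and -1.36 against -2.35, -2.13 and -2.31, and its difference of 0.39 ± 0.38 was not called (adjusted p = 0.423). With a slide-run block it was called at 0.99 (adjusted p = 0.00659). So the interleukin 1 genes stood apart between the lines while Tnf did not, by separate tests and with no test of one gene against the other.

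Ifnb1, which encodes interferon beta, read -1.96, -2.30 and -1.91 in the Tbc1d23 line and 1.73, 2.15 and 1.91 in the CAT line. No arrays overlapped, and it was lower by 15.8-fold, a difference of -3.99 ± 0.24 (limma, adjusted p = 1.44e-10), or -3.84 in the shared run. Il6, the acute-phase cytokine, was well above background on the 3 CAT arrays at -3.49, -2.65 and -2.69 and on no Tbc1d23 array, so it was at least 3.11-fold lower. Such a bound sets the mean of the brighter line against a floor on each dim array, namely the dimmest signal still well above background or the probe's signal if that is higher.

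Among all 19 cytokine genes tested, 9 were lower, 3 higher and 7 not called, 63.2% called against 48.0% over all genes. The list median was -0.29. The median was -0.40 with a slide-run block and 0.05 in the shared run, so its sign rests on the Tbc1d23 arrays of the other run. Other lower members were Csf1, the macrophage growth factor (-1.50 ± 0.21), Il18 (-1.14 ± 0.17), Tgfb1 (-0.92 ± 0.17) and Il15 (-0.84 ± 0.22), each with a limma adjusted p under 0.05 and named after their values were seen, as are list members below beyond the 4 that differ most. The 3 higher were Csf2, Lta and Tnfsf9. Csf2, which encodes GM-CSF, was well above background on the Tbc1d23 arrays at -2.40, -2.26 and -2.03 and on no CAT array, at least 6.39-fold higher. Tnfsf9, the 4-1BB ligand, was higher by 1.30 ± 0.15.

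Chemokine genes split by member. Cxcl10, the ligand of CXCR3 that interferon also induces, read 4.48, 4.77 and 4.61 on the Tbc1d23 arrays and 6.97, 7.08 and 7.05 on the CAT arrays. The lines did not overlap, with a difference of -2.42 ± 0.12, 5.34-fold (limma, adjusted p = 7.21e-12), and -2.43 in the shared run. Ccl2, which recruits monocytes, read 3.56, 3.71 and 3.93 against 5.46, 5.42 and 5.15, lower by 3.05-fold (-1.61 ± 0.17). Ccl3 and Ccl4, which encode the chemokines MIP-1 alpha and beta, stood the other way. Ccl3 read 8.76, 9.11 and 8.29 in the Tbc1d23 line and 6.83, 7.01 and 6.63 in the CAT line, higher by 3.72-fold (1.90 ± 0.25, adjusted p = 5.9e-06). Ccl4 read 8.46, 8.76 and 8.47 against 7.34, 7.53 and 7.33, higher by 2.24-fold (1.16 ± 0.13, adjusted p = 9.58e-07). Neither overlapped, and in the shared run the differences were 1.46 and 1.07.

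Cxcl2, the neutrophil attractant, overlapped between the lines at 4.79, 4.97 and 4.54 against 4.43, 5.30 and 5.14, and its difference of -0.19 ± 0.25 was not called (limma, adjusted p = 0.564). Of the 12 chemokine genes tested, 7 were lower, 2 higher and 3 not called, 75% called against 48.0% over all genes. The list median was -1.24, -1.14 with a slide-run block and -1.15 in the shared run. Cxcl11, another CXCR3 ligand, was at -3.91, -3.44 and -3.33 against 0.06, 0.46 and 0.22, and well above background on only some Tbc1d23 arrays. Ccl5 (-2.58 ± 0.18) and Cxcl16 (-2.50 ± 0.29), a membrane-bound chemokine and scavenger receptor, were also lower.

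**Figure D2:**
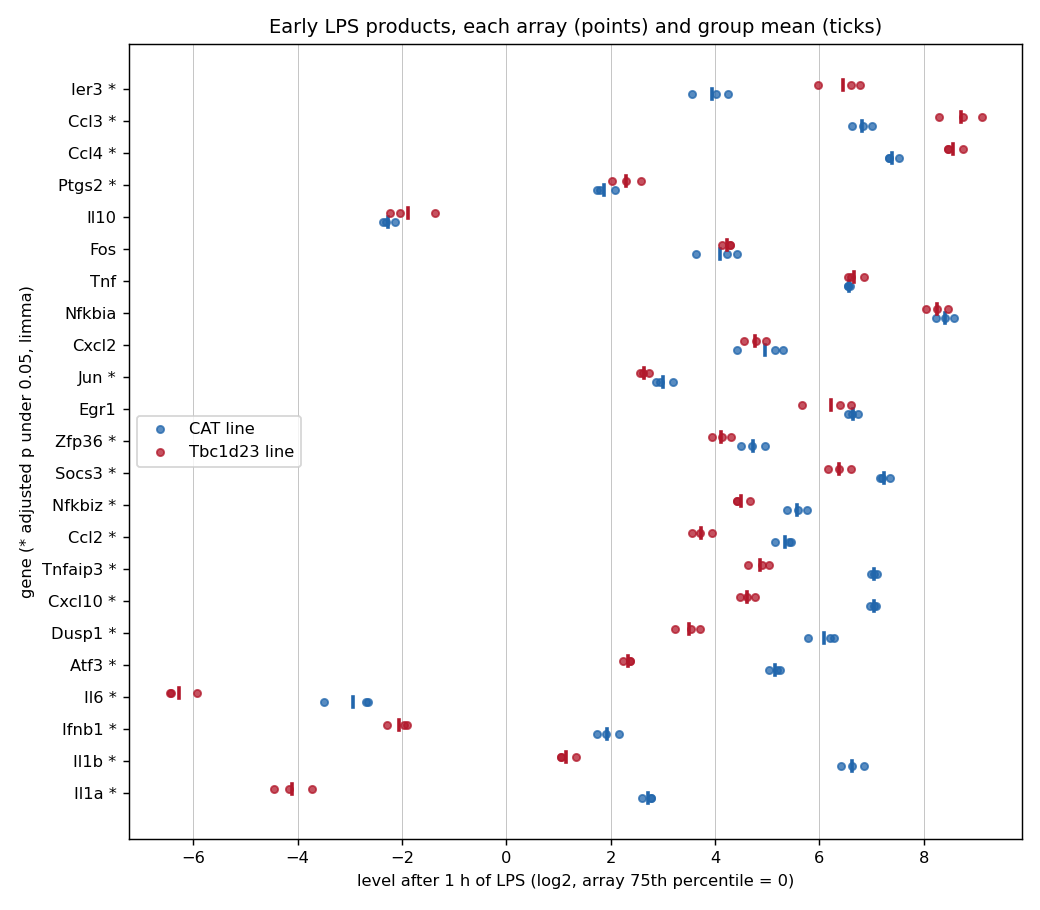
Level after 1 h of LPS on each array (log2, 75th percentile of the array at 0) for the 23 early LPS products tested, ordered by the difference between the lines. Red points are the 3 Tbc1d23 arrays, blue points the 3 CAT arrays and ticks the group means, and the clouds are far apart for Il1a and Il1b, overlap for Tnf, Fos and Nfkbia, and lie the other way for Ier3, Ccl3 and Ccl4.

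The immediate early factors were mostly lower. Of 24 tested, 17 were lower, 2 higher and 5 not called, 79.2% called against 48.0% over all genes. The list median was -1.18, -1.23 with a slide-run block and -1.17 in the shared run. Myc, which drives growth genes, read -1.60, -1.26 and -0.42 on the Tbc1d23 arrays and 3.32, 3.19 and 3.30 on the CAT arrays, lower by 20.6-fold (-4.37 ± 0.23). Egr2, a zinc finger factor, read 3.84, 4.22 and 4.74 against 8.58, 8.68 and 8.29, lower by 19.0-fold (-4.25 ± 0.27). In both genes Tbc1d23 replicate 3 was the nearest to the CAT arrays and still far below them.

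Klf4, a factor of macrophage activation, was lower by -4.01 ± 0.18 and Egr3 by -3.94 ± 0.17. Atf3, a repressor of cytokine genes that LPS induces, read 2.38, 2.24 and 2.36 against 5.04, 5.18 and 5.25, lower by 7.11-fold (-2.83 ± 0.10, limma, adjusted p = 8.94e-14). Jun, an AP-1 subunit, read 2.57, 2.73 and 2.62 against 2.87, 3.20 and 2.94, lower by -0.36 ± 0.10 (adjusted p = 0.00563). That call ended with median scaling (-0.48, adjusted p = 0.301), with the 6 arrays alone (adjusted p = 0.0779) and in the shared run (-0.38, adjusted p = 0.103).

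Fos and Egr1, classic first responders, were not called. Fos read 4.12, 4.29 and 4.28 in the Tbc1d23 line and 3.64, 4.24 and 4.41 in the CAT line (0.14 ± 0.17, limma, adjusted p = 0.547). Its sign turned with quantile normalization (-0.02), the deposited values (-0.02) and without CAT 1 h replicate 1 (-0.09). Egr1 read 6.40, 6.61 and 5.66 against 6.55, 6.74 and 6.63 (-0.42 ± 0.26, adjusted p = 0.201). It was called lower with a slide-run block (-0.88, adjusted p = 0.000201) and in the shared run (-0.98, adjusted p = 0.00828), where Tbc1d23 replicate 3 stands for its line. Ier3, an early survival gene, was higher, at 6.60, 6.78 and 5.98 against 3.56, 4.25 and 4.02, with no overlap and a difference of 2.51 ± 0.22 (5.68-fold, adjusted p = 2.7e-08).

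Of 24 NF-kB subunits, inhibitors and feedback genes tested, 16 were lower, 1 higher and 7 not called, 70.8% called against 48.0% over all genes. The list median was -0.84, -0.80 with a slide-run block and -0.75 in the shared run. Tnfaip3, which encodes the ubiquitin editor A20, read 4.63, 4.90 and 5.03 on the Tbc1d23 arrays and 6.98, 7.10 and 7.05 on the CAT arrays. It was lower by 4.57-fold (-2.19 ± 0.13, limma, adjusted p = 1.68e-10). Its partner gene Tnip3 read -2.12, -1.75 and -1.84 against 1.72, 1.86 and 1.57, lower by 12.3-fold (-3.62 ± 0.17). The inhibitor genes Nfkbie (-2.49 ± 0.13) and Nfkbiz, an atypical IkB that co-activates late cytokine genes (-1.07 ± 0.20, adjusted p = 0.000239), were lower too.

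Nfkbia, the inhibitor IkB alpha that is resynthesised first, overlapped at 8.25, 8.45 and 8.04 against 8.41, 8.59 and 8.24, and its difference of -0.16 ± 0.14 was not called (limma, adjusted p = 0.373, 95% interval -0.46 to 0.14). Among subunits, Relb (-1.79 ± 0.12), Nfkb2 (-1.09 ± 0.16) and Rela (-0.72 ± 0.08) were lower, while Nfkb1 was at -0.21 ± 0.21 and not called. The 1 higher member was Ikbkg, the regulatory subunit NEMO of the IkB kinase, at 2.03 ± 0.15. A second Ikbkg probe was also called higher (1.30 ± 0.19) and another was at -0.47 ± 0.20 and not called (adjusted p = 0.0654).

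Inhibitors outside NF-kB went both ways. Dusp1, the phosphatase that switches off p38 and JNK, read 3.53, 3.71 and 3.24 in the Tbc1d23 line and 5.77, 6.21 and 6.28 in the CAT line, lower by 6.03-fold (-2.59 ± 0.20, limma, adjusted p = 4.17e-09). Dusp6, the ERK-specific phosphatase, stood at 5.31, 5.69 and 4.69 against 0.12, 0.41 and -0.10, higher by 34.0-fold (5.09 ± 0.35, adjusted p = 1.02e-09). Of the 10 dual-specificity phosphatase genes tested 4 were higher and 4 lower, 80% called against 48.0% over all genes. The list median was 0.22, 0.03 with a slide-run block and 0.08 in the shared run. Dusp14 was higher by 2.50 ± 0.50 and Dusp8 lower by -1.27 ± 0.32, and neither was called in the shared run (1.55, adjusted p = 0.106, and -1.34, adjusted p = 0.0905).

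Of 17 inhibitors of cytokine signalling and regulators of mRNA decay 8 were lower and 4 higher, 70.6% called against 48.0% over all genes. The list median was -0.17, -0.33 with a slide-run block and -0.36 in the shared run. Irak3, the inactive kinase that restrains TLR signalling (-2.37 ± 0.21), and Socs1, which restrains JAK kinases (-2.03 ± 0.21), were lower. Rgs2, a brake on G protein signalling, read 5.99, 6.28 and 6.01 against 3.09, 3.60 and 3.27, higher by 2.77 ± 0.16. Socs3 was lower by -0.86 ± 0.16 (limma, adjusted p = 0.000183) and Zfp36, which encodes the decay factor tristetraprolin, by -0.59 ± 0.14 (adjusted p = 0.00197). Neither was called in the shared run (-0.63, adjusted p = 0.0656, and -0.42, adjusted p = 0.0902). The Zfp36 call also ended with median scaling (-0.71, adjusted p = 0.157) and with the mean of probes (-0.17, adjusted p = 0.553).

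Promoters of 4 early products are printed because they carry the kappa B consensus, which NF-kB binds, and come from genes lower (Ifnb1, Cxcl10), not called (Cxcl2) and higher (Ier3) in the Tbc1d23 line. Each run is the 250 bases before the gene start from RefSeq, build GRCm38.p6, 5′ to 3′ on the strand of the gene, with matches to the consensus on either strand in capitals.
Ifnb1, chr4:88522795-88523044, minus strand: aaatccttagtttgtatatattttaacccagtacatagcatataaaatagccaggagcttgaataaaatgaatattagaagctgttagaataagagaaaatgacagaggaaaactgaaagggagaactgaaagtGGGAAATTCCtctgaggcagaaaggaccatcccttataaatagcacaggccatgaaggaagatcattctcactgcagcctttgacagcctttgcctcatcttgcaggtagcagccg
Cxcl10, chr5:92348890-92349139, minus strand: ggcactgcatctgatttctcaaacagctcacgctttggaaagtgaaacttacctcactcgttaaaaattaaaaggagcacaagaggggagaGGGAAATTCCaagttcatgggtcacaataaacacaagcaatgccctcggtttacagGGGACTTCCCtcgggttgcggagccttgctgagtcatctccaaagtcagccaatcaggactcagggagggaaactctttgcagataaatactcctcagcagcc
Cxcl2, chr5:90903649-90903898, plus strand: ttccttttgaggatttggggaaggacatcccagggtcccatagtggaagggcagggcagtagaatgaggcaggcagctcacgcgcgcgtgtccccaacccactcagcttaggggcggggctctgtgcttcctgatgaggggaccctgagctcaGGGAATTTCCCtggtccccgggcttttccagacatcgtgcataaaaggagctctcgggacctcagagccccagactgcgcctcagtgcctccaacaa
Ier3, chr17:35821463-35821712, plus strand: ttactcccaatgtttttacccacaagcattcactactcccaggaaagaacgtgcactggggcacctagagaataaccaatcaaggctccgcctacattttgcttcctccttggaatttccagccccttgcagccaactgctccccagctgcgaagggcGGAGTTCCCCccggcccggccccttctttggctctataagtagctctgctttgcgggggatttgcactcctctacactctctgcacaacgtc
The capitals of Cxcl2 hold 2 matches that overlap by all but 1 base. In windows of 300 bases (250 before the start and 50 after it), the consensus was found in 5.14% of 12240 promoters of genes tested, in 6.26% of promoters of genes called lower and 5.00% of those called higher, and in 4.50% of all 32851 promoters of the table. It was found in 34.2% of 79 promoters of 4 early lists (immediate early genes, cytokines, chemokines and NF-kB genes). Within these lists it was in 20 of 54 promoters of genes called lower, 1 of 8 of those called higher and 6 of 17 of those not called. The AP-1 motif TGANTCA, searched on both strands, was in 5.44% of promoters of genes tested, 5.65% of those lower and 5.07% of those higher. Promoters were matched for 9646 of the genes tested, a match is a description and not a bound site, and the windows of Il1a, Il1b and Tnf hold no match to the kappa B consensus.

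Of 26 genes of the LPS receptor and its signalling chain 9 were lower, 4 higher and 13 not called, close to the background of 48.0% called, with a median of -0.06, -0.08 with a slide-run block and -0.08 in the shared run. The co-receptor gene Cd14 was at -0.01 ± 0.12 and Tlr4 at 0.43 ± 0.22, neither called, and Ly96, which encodes MD-2, was higher by 0.78 ± 0.10. Among adaptors Ticam1, which encodes TRIF, was lower by -1.51 ± 0.18 and Myd88 by -0.69 ± 0.25, and Tirap was higher by 0.81 ± 0.16. Map2k6, a kinase upstream of p38, read -3.79, -2.99 and -3.13 against -1.13, -1.03 and -0.78 (-2.33 ± 0.34). Mapk3, which encodes ERK1, was lower by 3.66-fold (-1.87 ± 0.17).

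Other sensors of microbes were lower more often than higher. Of 13 other pattern recognition receptors tested 7 were lower and 2 higher, 69.2% called against 48.0% over all genes. The list median was -0.81, -0.60 with a slide-run block and -0.65 in the shared run. Nod2, which senses muramyl dipeptide, read -0.99, -0.77 and -0.56 against 2.10, 2.24 and 2.02 (-2.89 ± 0.16). Tlr1 (-2.05 ± 0.08) and its partner Tlr2 (-1.77 ± 0.20), which bind bacterial lipoproteins, were lower, while Tlr6, the other partner of Tlr2, was at 0.20 ± 0.18 and not called. Ddx58, the RNA sensor RIG-I, was higher by 1.41 ± 0.38, and by 1.35 in the shared run, where Tbc1d23 replicate 3 stands for its line. A second Ddx58 probe was at 0.58 ± 0.41 and not called (limma, adjusted p = 0.266).

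Lectin genes included the lowest difference among gene symbols well above background on all 6 arrays. Clec7a, which encodes the beta-glucan receptor dectin-1, stood at -3.23, -3.30 and -3.07 on the Tbc1d23 arrays and at 3.80, 3.99 and 4.02 on the CAT arrays. It was lower by 140-fold (-7.13 ± 0.14, limma, adjusted p = 2.15e-17). Over the alternatives the Clec7a difference lay between -7.25 and -5.66. The inhibitory lectin gene Clec4a2 read -0.78, -0.69 and -0.56 against 3.85, 3.81 and 3.55 (-4.42 ± 0.13), and the scavenger receptor gene Cd36 -0.43, -0.60 and -0.69 against 3.68, 3.44 and 3.50 (-4.11 ± 0.12). Olr1, the receptor of oxidised LDL, was on no Tbc1d23 array well above background and was at least 65.0-fold lower. No Tbc1d23 array reached a CAT array in any of these 4 genes, which were chosen for the size of their difference. Over all genes, the arrays of the lines did not overlap for 55.0%, in either direction.

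Of the 16 lectin and scavenger receptor genes tested 10 were lower and 4 higher, 87.5% called against 48.0% over all genes. The list median was -1.02, -0.91 with a slide-run block and -0.91 in the shared run. The 4 higher were Clec5a (1.02 ± 0.11), Clec4d (1.00 ± 0.14), Msr1, the class A scavenger receptor (0.79 ± 0.11), and Scarb2 (0.50 ± 0.12). Clec4e, the receptor Mincle and neighbour of Clec4d in the dectin-2 family, was lower by -1.20 ± 0.19.

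Interferon genes gave no single direction. Of 17 interferon receptor, JAK-STAT and IRF genes 8 were lower and 3 higher, 64.7% called against 48.0% over all genes. The list median was -0.41, -0.37 with a slide-run block and -0.42 in the shared run. The receptor gene Ifnar1 (-1.09 ± 0.13) and the factors Irf8 (-1.04 ± 0.12) and Irf5 (-0.95 ± 0.14), which serve macrophage development and TLR signalling, were lower. Stat2, a subunit of the complex that interferon activates, read 0.25, 0.32 and 0.01 against -1.17, -0.93 and -0.94, higher by 1.21 ± 0.15.

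Against 48.0% called over all genes, 84.8% were called of 33 interferon-stimulated effector genes, 17 higher and 11 lower. Their median was 0.29 (0.28 with a slide-run block, 0.25 in the shared run), and their mean, -0.08, had the opposite sign. Median scaling left 7 higher and 8 lower. The guanylate-binding protein gene Gbp3 (-2.95 ± 0.16), the DNA-binding p200 member Ifi203 (-2.87 ± 0.14) and the ubiquitin-like modifier Isg15 (-2.50 ± 0.15) had the lowest differences of the list. Isg15 read 0.07, 0.09 and -0.07 against 2.45, 2.54 and 2.59. Ifi47, an interferon-inducible GTPase, read -0.38, -0.25 and -0.66 against -3.05, -3.44 and -3.03, higher by 2.75 ± 0.15, and the antiviral genes Mx2 (1.72 ± 0.18) and Usp18 (1.56 ± 0.18) were higher as well.

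Ptgs2, the inducible cyclooxygenase of prostaglandin synthesis, read 2.58, 2.29 and 2.03 in the Tbc1d23 line and 1.73, 1.80 and 2.08 in the CAT line. The lines overlapped, and the call of 0.43 ± 0.17 (limma, adjusted p = 0.0444) ended under 13 of 20 alternatives, with 0.16 in the shared run (adjusted p = 0.501). It also ended without Tbc1d23 1 h replicate 1 (0.29, adjusted p = 0.216), Tbc1d23 1 h replicate 2 (0.44, adjusted p = 0.0839), CAT 1 h replicate 1 (0.36, adjusted p = 0.143) or CAT 1 h replicate 2 (0.39, adjusted p = 0.114). Other enzyme genes were clearly apart. The leukotriene enzyme Alox5 was higher by 1.87 ± 0.15 and Ptgs1, the constitutive cyclooxygenase, by 1.62 ± 0.20. Acod1, which makes itaconate, was lower by -1.59 ± 0.26.

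Against 48.0% called over all genes, 82.6% were called of 23 inflammatory enzyme and mediator genes tested, 10 higher and 9 lower. The median was 0.15 and the mean -0.40, and the median turned with normexp background correction (-0.12), with a slide-run block (-0.10), in the shared run (-0.06) and under 2 further alternatives. Slpi, a secreted protease inhibitor, read 3.27, 3.30 and 3.70 against 1.10, 0.91 and 1.01, higher by 2.42 ± 0.21. F10, coagulation factor X, was at least 19.9-fold lower and Cfb, complement factor B, at least 11.4-fold lower, both measured in the CAT line only. Saa3, serum amyloid A, was lower by -2.54 ± 0.38.

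Of 10 costimulation and adhesion genes tested 6 were lower and 3 higher, 90% called against 48.0% over all genes. The list median was -0.78, -0.93 with a slide-run block and -0.82 in the shared run. The activation marker gene Cd83 read 5.03, 5.27 and 5.33 against 7.80, 7.66 and 7.49 (-2.44 ± 0.11), and Cd274, which encodes the checkpoint ligand PD-L1, was lower by -1.70 ± 0.21. Cd80, a ligand of CD28, stood the other way at -0.54, -0.65 and -0.60 against -2.02, -2.41 and -2.42 (1.69 ± 0.15). Cd24a was at least 6.32-fold lower.

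**Figure D3:**
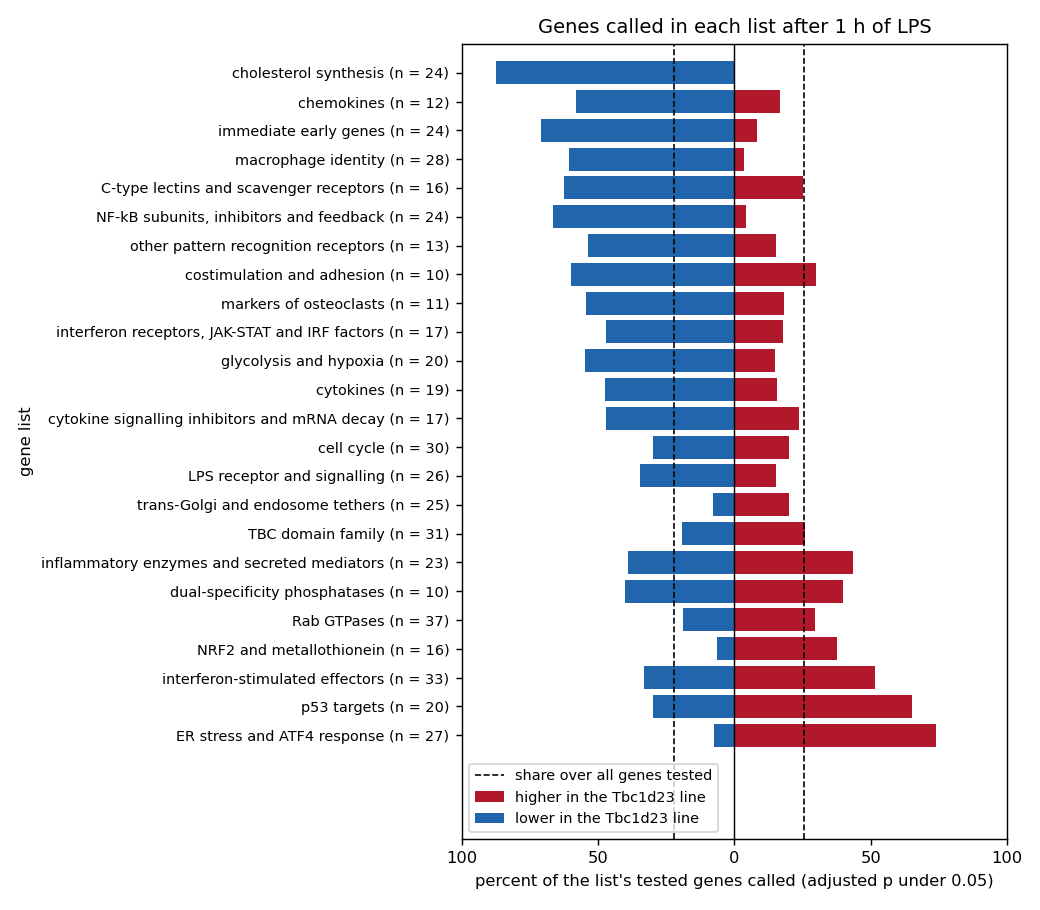
Percent of the tested genes of each list (lists with at least 10 genes tested) called higher (red, to the right) or lower (blue, to the left) in the Tbc1d23 line after 1 h of LPS, limma adjusted p under 0.05. Dashed lines mark the shares over all genes tested, 25.7% higher and 22.3% lower, and cholesterol synthesis, immediate early and NF-kB genes extend furthest to the left while ER stress and p53 genes extend furthest to the right.

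The cells kept the marks of macrophages in both lines, at lower levels in the Tbc1d23 line for most of them. All 28 macrophage identity genes tested were above background in both lines. The lysozyme gene Lyz2 (-0.20 ± 0.22), Cd68 (-0.09 ± 0.13) and Trem2 (-0.06 ± 0.16) were not called. Of the 28, 17 were lower, 1 higher (Itgam, 0.65 ± 0.21) and 10 not called, 64.3% called against 48.0% over all genes. The list median was -1.14, -1.11 with a slide-run block and -1.07 in the shared run. Cybb, the catalytic subunit of the phagocyte oxidase, read 0.07, 0.09 and 0.01 against 4.01, 4.12 and 4.47 (-4.14 ± 0.11). The chemokine receptor gene Cx3cr1 (-3.42 ± 0.15), the inhibitory Fc receptor gene Fcgr2b (-3.35 ± 0.12) and Ms4a6c (-3.96 ± 0.15) were lower, and the surface marker gene Adgre1, which encodes F4/80, was lower by -2.88 ± 0.20. Among lineage factors Spi1, which encodes PU.1 (-1.50 ± 0.22), and Cebpa (-1.17 ± 0.12) were lower, and Cebpb (-0.29 ± 0.20) was not called.

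Osteoclast genes, which RAW264.7 cells can express, were tested for 11 members, with 6 lower and 2 higher, 72.7% called against 48.0% over all genes. The list median was -0.75, -0.40 with a slide-run block and -0.38 in the shared run. Acp5, the tartrate-resistant phosphatase, was well above background on only some Tbc1d23 arrays at -4.81, -6.05 and -4.39 against 2.29, 1.94 and 1.83. Ocstamp was lower by -3.29 ± 0.23, Atp6v0d2 by at least 6.48-fold and Ctsk, which encodes cathepsin K, by at least 4.70-fold. The integrin gene Itgb3 was at least 3.87-fold higher, and Dcstamp was higher by 1.37 ± 0.15.

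Cholesterol synthesis genes were lower with almost no exception. Of 24 genes tested 21 were lower, 0 higher and 3 not called, 87.5% called against 48.0% over all genes. Of the 21 lower, 19 differed at least 2-fold. The median was -1.57, -1.54 with a slide-run block and -1.54 in the shared run, and it stayed between -1.69 and -1.43 over the 20 alternatives, with 20 to 22 genes lower and 0 higher. Lss, lanosterol synthase, read -2.16, -2.04 and -1.48 against 0.82, 0.60 and 0.76 (-2.62 ± 0.20). Other Lss probes were also called lower, but by less, at -0.92 ± 0.17 and -0.76 ± 0.23. Fdps, which makes farnesyl diphosphate, read 2.71, 2.90 and 2.63 against 5.15, 5.04 and 4.96 (-2.31 ± 0.10), though its second probe was at -0.80 ± 0.34 and not called (limma, adjusted p = 0.0593). The SREBP regulator gene Insig1 (-2.44 ± 0.17) and the sterol demethylase gene Cyp51 (-2.23 ± 0.08) were lower. Hmgcs1, which makes HMG-CoA (-1.85 ± 0.24), and Srebf2, the factor that drives these genes (-1.12 ± 0.13), were lower too. Ebp (0.05 ± 0.16), Sc5d (0.07 ± 0.17) and Acat2 (-0.36 ± 0.32) were not called.

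Stress genes of the endoplasmic reticulum stood higher. Of 27 ER stress and ATF4 genes tested 20 were higher, 2 lower and 5 not called, 81.5% called against 48.0% over all genes. Median scaling left 12 higher and 1 lower. The list median was 0.90, 0.92 with a slide-run block and 0.91 in the shared run. Trib3, a pseudokinase induced by ATF4 and CHOP, read 0.53, 0.54 and 0.19 on the Tbc1d23 arrays and -3.55, -2.67 and -2.85 on the CAT arrays, higher by 10.9-fold (3.44 ± 0.20, limma, adjusted p = 1.45e-10). A second Trib3 probe was also called higher, but by less, at 0.87 ± 0.28. Ddit3, which encodes CHOP, read 0.56, 0.70 and 1.23 against -1.61, -1.38 and -1.65 (2.38 ± 0.19). Sesn2 (2.85 ± 0.18) and the chaperones Creld2 (1.67 ± 0.18), Pdia4 (1.32 ± 0.21) and Hspa5, which encodes BiP (0.80 ± 0.10), were higher. A second Sesn2 probe was also called higher, but by less, at 1.40 ± 0.17. Atf4 itself was at 0.16 ± 0.15 and not called. The 2 lower were Ppp1r15a, which encodes GADD34 and is also an immediate early product (-1.51 ± 0.26), and Xbp1 (-0.46 ± 0.15).

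Of 20 p53 target genes tested 13 were higher, 6 lower and 1 not called, 95% called against 48.0% over all genes. Median scaling left 7 higher and 3 lower. The list median was 0.75, 0.70 with a slide-run block and 0.69 in the shared run. Phlda3, an inhibitor of AKT, read 5.43, 5.81 and 5.99 against 1.35, 1.30 and 0.96 (4.54 ± 0.20). Ccng1, which encodes cyclin G1, read 5.11, 5.12 and 5.09 against 2.15, 1.89 and 1.60 (3.23 ± 0.13). A second Ccng1 probe was also called higher, but by less, at 1.53 ± 0.15. Eda2r was at least 4.72-fold higher, Mdm2 was higher by 1.17 ± 0.09 and Cdkn1a, which encodes p21, by 0.97 ± 0.17. The death receptor gene Fas was lower, at -2.85, -2.97 and -2.29 against -0.01, -0.52 and -0.69 (-2.29 ± 0.23), as was Gadd45a (-2.18 ± 0.23).

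Of 16 NRF2 and metallothionein genes tested 6 were higher, 1 lower and 9 not called, a share of 43.8% called against 48.0% over all genes, with a median of 0.29, 0.34 with a slide-run block and 0.36 in the shared run. Hmox1, haem oxygenase, read 5.80, 5.99 and 6.28 against 2.11, 3.02 and 2.92 (3.34 ± 0.27, 10.1-fold). The cystine transporter gene Slc7a11 (2.00 ± 0.20) was higher, also with a second probe (0.79 ± 0.24), and another was at 0.37 ± 0.16 and not called (limma, adjusted p = 0.0606). Srxn1, sulfiredoxin, was the 1 lower member (-1.20 ± 0.14).

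The family of Tbc1d23 itself and the Rab GTPases were called at about the share of all genes. Of 31 TBC domain genes tested 8 were higher, 6 lower and 17 not called, 45.2% called against 48.0% over all genes, with a median of 0.11 that turned to -0.01 with median scaling and to -0.03 with normexp background correction. It was 0.14 with a slide-run block and 0.19 in the shared run. Tbc1d12 read -0.85, -0.51 and -0.64 against -3.09, -2.55 and -3.05 (2.23 ± 0.16). Tbc1d2, a regulator of RAB7, was higher by 1.53 ± 0.28, and the call ended with the mean of probes (0.64, limma, adjusted p = 0.0606), its second probe being at -0.26 ± 0.68. The lower members were Rabgap1l, at least 1.47-fold lower and seen in the CAT line only, and 5 genes between -0.82 and -0.34, among them Tbc1d2b (-0.81 ± 0.22).

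Of 37 Rab GTPase genes tested 11 were higher, 7 lower and 19 not called, 48.6% called, with a median of 0.23, 0.29 with a slide-run block and 0.34 in the shared run. Rab15, a GTPase of endocytic recycling, stood at 4.11, 4.33 and 4.63 in the Tbc1d23 line and -3.08, -3.17 and -3.63 in the CAT line, 201-fold higher (7.65 ± 0.24, limma, adjusted p = 3.32e-14). Over the alternatives Rab15 differed by 6.25 to 7.92. Its probe begins with the bases below (30 of 60, mm9), shown because it differed far more than any other Rab or TBC gene tested, which lay between -2.31 and 2.23.
Rab15 probe A_51_P419117, chr12:77898991-77899050: gtgacctttgtgtactgtgtcttgggtcca
Rab3d, a GTPase of secretory granules, was 3.99-fold lower, and a second probe of it was at -1.10 ± 0.75 and not called. Rab19 (1.42 ± 0.14) and Rab21 (1.25 ± 0.13) were higher, and the endosomal Rab5a (0.28 ± 0.13) and Rab7 (0.20 ± 0.12) were not called.

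Of 25 trans-Golgi and endosome tether genes, the setting in which TBC1D23 is known to act, 5 were higher, 2 lower and 18 not called. That is 28.0% called against 48.0% over all genes. The median of 0.08 turned to -0.03 with median scaling, to -0.03 with quantile normalization, to -0.04 with the deposited values and to 0.00 without CAT 1 h replicate 3. The golgin gene Golga4, whose protein captures vesicles with TBC1D23, read 5.50, 5.57 and 5.71 against 4.34, 5.01 and 4.66 (0.92 ± 0.20, limma, adjusted p = 0.00109), and was not called with median scaling (0.81, adjusted p = 0.0722). The cargo receptor gene Igf2r (-1.24 ± 0.18) and the SNARE gene Stx16 (-1.01 ± 0.12) were lower, though a second Stx16 probe was at -0.04 ± 0.12.

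**Figure D4:**
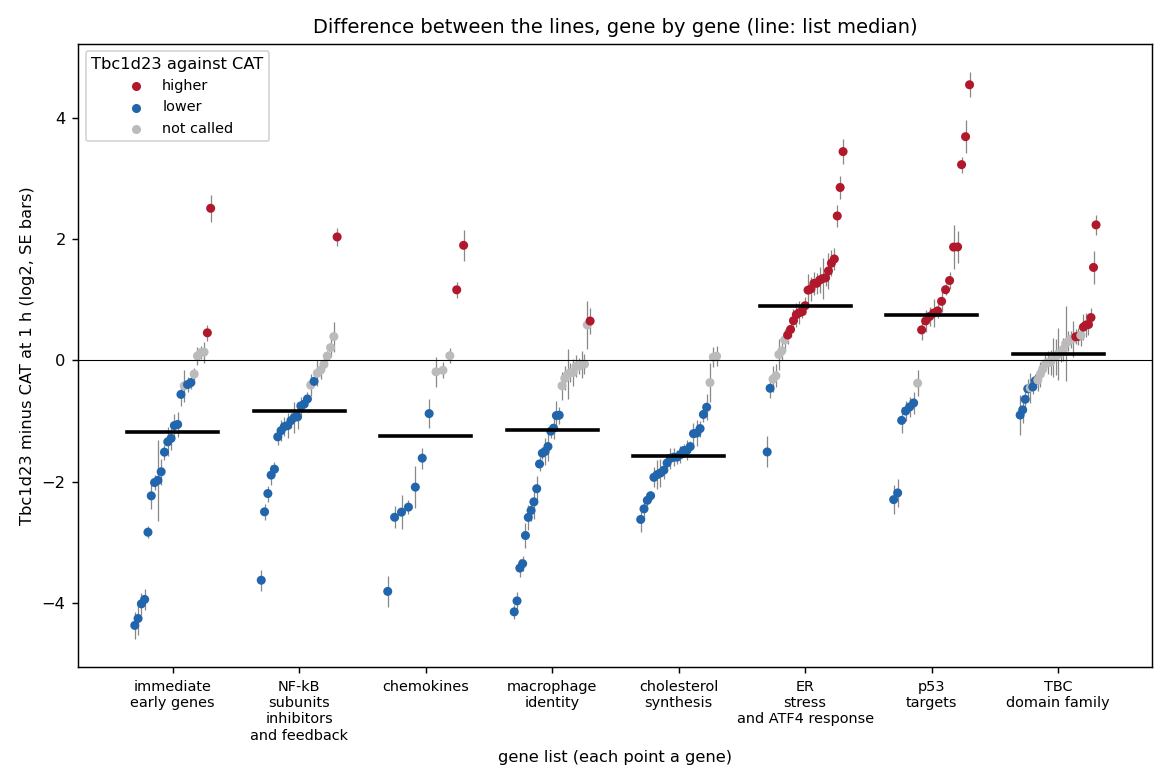
Difference between the lines after 1 h of LPS (Tbc1d23 minus CAT, log2, bars show SE, n = 3 arrays per line) for each tested gene of 8 lists, with the list median as a black line. Red points were called higher, blue points lower and grey points not called, and almost all cholesterol genes lie below 0, most ER stress and p53 genes above it, and TBC genes on both sides.

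Glycolysis and hypoxia genes had 11 of 20 members lower and 3 higher, 70% called against 48.0% over all genes. The list median was -0.33, -0.26 with a slide-run block and -0.27 in the shared run. Egln3, an oxygen-sensing hydroxylase, was at least 10.2-fold lower, and Bnip3 (-1.56 ± 0.21) and Pdk1 (-1.19 ± 0.23) were lower, while Hif1a (1.09 ± 0.11) and Hk1 (1.10 ± 0.16) were higher. Of 3 other Hk1 probes 1 was called higher (0.79 ± 0.24), and those at 0.67 ± 0.31 and 0.30 ± 0.20 were not called.

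Cell cycle genes had 6 of 30 members higher, 9 lower and 15 not called, 50% called against 48.0% over all genes. Their median was -0.07, -0.01 with a slide-run block and in the shared run, and their mean 0.13. Among D cyclins, Ccnd2 read 1.82, 1.92 and 2.39 against -5.23 to -3.82, with CAT arrays only partly above background (6.39 ± 0.42), and Ccnd1 read 3.55, 3.68 and 3.69 against 1.53, 1.54 and 1.53 (2.10 ± 0.09). Ccna2 (-1.19 ± 0.19) and Ccnb2 (-0.99 ± 0.15), cyclins of S phase and mitosis, were lower. Mki67 was lower by -0.58 ± 0.11.

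Over all genes, the 10 highest and 10 lowest differences were read among symbols well above background on all 6 arrays. Epha2, a receptor tyrosine kinase, read 4.77, 5.12 and 5.43 in the Tbc1d23 line and -4.22, -3.58 and -4.39 in the CAT line, 577-fold higher (9.17 ± 0.31, limma, adjusted p = 7.92e-14). It was followed by Rab15, by the sulfotransferase gene Chst1 (7.12 ± 0.18, 139-fold) and by Rhod, a GTPase of endosome movement (6.47 ± 0.21, 88.4-fold). Other Rhod probes were also called higher, but by less, at 5.28 ± 0.56 and 3.42 ± 0.29. The rest of the 10 highest were Acsbg1 (5.88 ± 0.24), Dmwd (5.51 ± 0.17), Serinc2 (5.49 ± 0.21), Cnnm1 (5.33 ± 0.48), Dusp6, and Ctsh, which encodes cathepsin H (5.02 ± 0.31). In these 10 genes each Tbc1d23 array lay above each CAT array, which the choice required.

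After Clec7a and Il1b the lowest was Cytip, a regulator of leukocyte adhesion, at -3.14, -3.07 and -2.88 against 2.07, 2.16 and 2.22 (-5.18 ± 0.19), with a second probe at -1.26 ± 0.35 and another at -0.57 ± 0.67, not called (limma, adjusted p = 0.51). Slc9b2 (-4.75 ± 0.25), the transglutaminase gene Tgm2 (-4.46 ± 0.14), Clec4a2, Myc, Calml4 (-4.26 ± 0.39), Egr2 and Pirb, an inhibitory receptor of myeloid cells (-4.23 ± 0.26), followed. A second Tgm2 probe was called lower at -2.15 ± 0.57, and another was at -1.49 ± 0.61 and not called (adjusted p = 0.0541). Over all tested genes with several probes, 1803 pairs of probes were both called, and 1528 of them (84.7%) in the same direction.

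Genes seen in 1 line only gave bounds. Higher in the Tbc1d23 line were Tnnt2, a cardiac troponin gene, by at least 403-fold (3.70, 3.79 and 3.75 on its arrays), the oxidase gene Hao1 by at least 231-fold, Mpp3 by at least 25.3-fold, Cd1d1, which presents lipids to T cells, by at least 22.1-fold, and the serotonin transporter gene Slc6a4 by at least 19.8-fold. Measured in the CAT line only were the spectrin gene Sptbn1, lower in the Tbc1d23 line by at least 101-fold, Evl by at least 94.3-fold, Flrt3 by at least 70.0-fold, and Olr1. No array of the second line was well above background for any of these genes. The Sptbn1 and Tnnt2 bounds each rest on 1 probe. No other probe of Sptbn1 or Tnnt2 was well above background on all arrays of either line.

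Few marker genes of other blood lineages were tested, and some of them differed. Called were 66.7% of 3 B cell and 75% of 4 T and NK markers tested. Of 5 dendritic markers 20% were called, of 6 granulocyte, mast and erythroid markers 33.3%, and of 2 fibroblast and epithelial markers 50%. Lists of this size are too small to set their shares against that of all genes. Over all genes 48.0% were called. Of 12 markers of B cells and their precursors 3 were tested, and Dntt, the terminal transferase of lymphoid precursors, read 3.30, 3.53 and 3.99 on the Tbc1d23 arrays and -1.44, -0.81 and -1.46 on the CAT arrays (4.84 ± 0.42). Vpreb1, a surrogate light chain, was at least 14.6-fold higher. It was measured in the Tbc1d23 line only, so it had to differ to be kept. The other member tested was not called. The defining genes Cd79a, Cd79b, Ms4a1, Pax5 and Ebf1 did not pass the filter in either line. The summed linear level of the B cell list, most of which is Dntt, was 10.5 to 16.6 times the array's 75th percentile on the Tbc1d23 arrays and 0.461 to 0.924 on the CAT arrays. Such sums add up signals of different probes and serve only to set the lines side by side.

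Of 13 T and NK cell markers 4 were tested, with Cd5 (2.87 ± 0.20) and the kinase gene Lck (1.32 ± 0.15) higher and Cd3e lower (fitted at -2.12 ± 0.58, well above background on 2 of 3 Tbc1d23 arrays), a call that ended in the shared run (-1.04, limma, adjusted p = 0.0553). Their sums were 3.03 to 3.42 against 0.825 to 1.14. Dendritic cell markers had 5 of 9 tested, and 1 was called, Itgax at -2.31 ± 0.17. A second Itgax probe was at -0.585 ± 0.656 and not called (limma, adjusted p = 0.493). The median of the dendritic list, -0.72, turned to 0.07 with a slide-run block and 0.01 in the shared run. Its sums were 0.595 to 0.939 against 1.51 to 2.12. Granulocyte, mast and erythroid markers had 6 of 13 tested, with a median of 0.08 whose sign turned under 7 of 20 alternatives (-0.20 to 0.47 over all of them), and sums of 0.442 to 0.625 against 0.724 to 1.00. Among them S100a8 was at least 3.12-fold higher, a call that ended with normexp background correction (0.08, limma, adjusted p = 0.72) and in the shared run (2.19, adjusted p = 0.0585). Csf3r was fitted at -2.79 ± 0.28, with 2 of 3 Tbc1d23 arrays well above background. Of 12 fibroblast and epithelial markers 2 were tested, with sums of 0.0589 to 0.289 against 0.494 to 0.621. All CAT arrays were well above background for 5 dendritic, 5 granulocyte, mast and erythroid, and 2 fibroblast and epithelial markers. All Tbc1d23 arrays were so for 2, 2 and 0 markers of these lists. Their sums in the Tbc1d23 line therefore hold dim signal, and describe the filter as well as the cells. Pdgfrb was well above background on 1 of 3 Tbc1d23 arrays, at -6.60, -2.24 and -4.93 against -1.52, -0.89 and -1.40, and its fitted difference lay between -4.50 and -1.37 over the alternatives. Whether these genes and the lists above differ for one reason was not tested, and in RNA from a whole culture fewer cells of a type and less RNA per cell cannot be told apart.

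The lines also differed before LPS, with 6729 of the same genes (47.0%) called at 0 h. Of the genes called at 1 h, 5462 were called in the same direction at 0 h, which is 79.6% of those at 1 h and 81.2% of those at 0 h. A further 83 were called in opposite directions and 1320 only at 1 h, a split by 2 thresholds and not a test. The test of the difference between the 2 times called 355 genes (2.48%), 95 with a higher value at 1 h and 260 with a lower one, and 72 with median scaling, 228 in the shared run and 547 with a slide-run block. The 0 h and 1 h arrays of a replicate share a slide, and a random block for slides (within-slide correlation 0.575) gave 901 genes. The shared slides bear on the overlap of calls between the times as well, and their part in it was not tested. Clec7a (-7.17 at 0 h, -7.13 at 1 h), Cd36 (-4.16 and -4.11), Rab15 (7.89 and 7.65) and Phlda3 (4.60 and 4.54) show the standing kind of difference.

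Of the 23 early products tested, 17 were called in that test. Ifnb1 went from 1.13 ± 0.24 at 0 h, where no array of either line was well above background, to -3.99, and Cxcl10 from 1.30 ± 0.12 to -2.42. Tnf stood 1.92 ± 0.14 above the control at 0 h and level with it at 1 h (0.11), Ccl4 5.17 ± 0.13 above it and then 1.16, and Ptgs2, with the CAT line below background at 0 h, 6.64 ± 0.17 and then 0.43. Il1b, on no Tbc1d23 array well above background at 0 h, was at -1.52 ± 0.26 and then -5.48. In each of these genes the line difference was lower at 1 h than at 0 h, whichever side of 0 it ended on. Among the 6 not called in the test, Atf3 was at -3.32 ± 0.10 and then -2.83, below the control at both times.

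**Figure D5:**
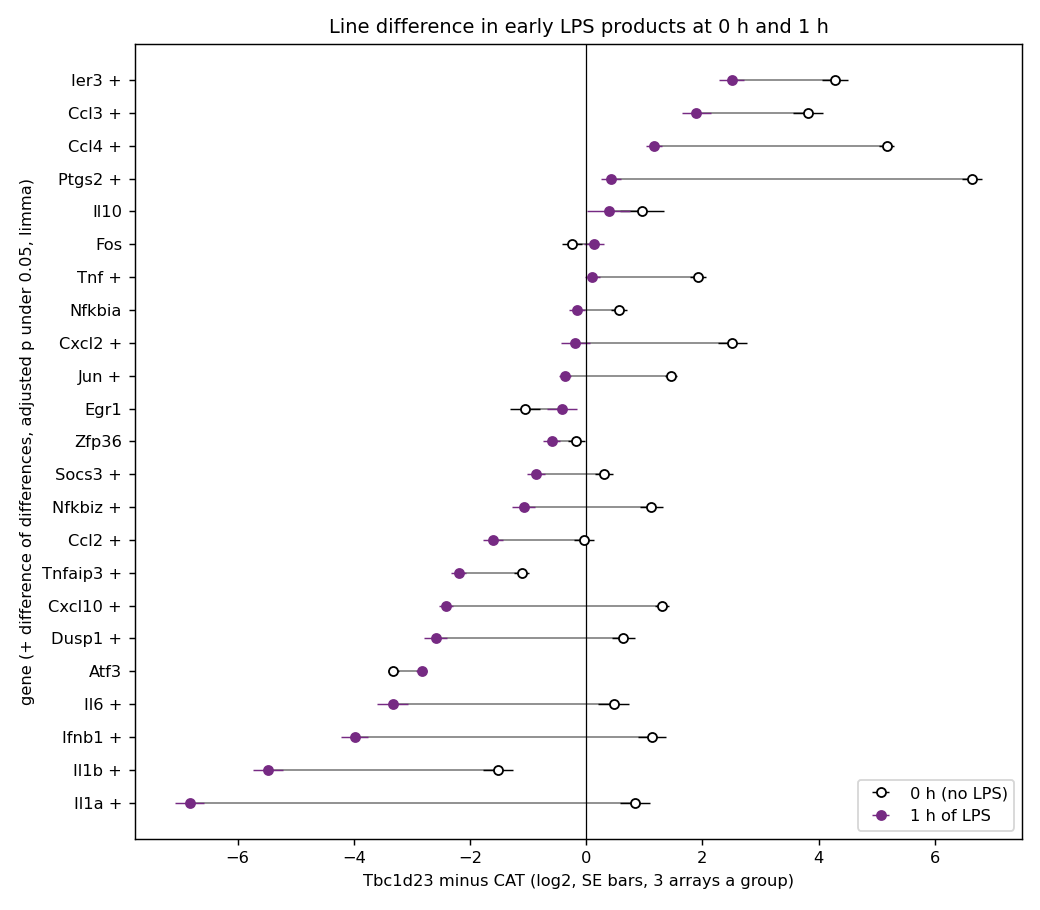
Difference between the lines (Tbc1d23 minus CAT, log2, bars show SE, n = 3 arrays per group) for the 23 early LPS products tested, at 0 h (open points) and after 1 h of LPS (filled points), joined by a grey line. A plus sign marks the 17 genes for which the difference of the differences was called, and in these genes the filled point lies to the left of the open one.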

How the data were processed

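Labelled RNA of each sample was read on its own one-colour Agilent array, per the labels. The deposited scanner output gives an intensity for every spot, made with Agilent Feature Extraction per the file headers, in which background is subtracted and dim values are replaced by a surrogate (28.3 to 37.8% of probes here). According to the submitters' processing notes RMA and Partek followed; the log2 values the authors deposited served only as an alternative. After removal of outlier spots, spots of a probe were averaged (43379 spots, 41174 probes) and levels scaled to the 75th percentile of the array, which lay at 197 to 364 signal units. No spot was saturated. Current symbols came from RefSeq accessions for 25097 probes. Probe coordinates are mm9, as filed. Fits used limma 3.58.1 in R 4.3.3 (lmFit, eBayes) and were tested on simulated data. Alternatives changed the normalization, filter, probe choice, slide block, replicate block and arrays. The default normexp fit failed on some arrays, so negative control spots set its parameters. The genes named are Tbc1d23 and the 10 highest and 10 lowest differences among gene symbols measured on all 6 arrays. To these come the 5 largest bounds each way, 24 early products and up to 4 genes of each of 29 lists. Others are named as chosen after their values were seen. Some of these genes are not reported here. Members and lists were chosen with earlier results of these data known.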

Additional observations from a re-analysis of the deposited data

Results flagged for a closer look

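The difference between the lines at 1 h minus that at 0 h was called by limma (adjusted p under 0.05 over all genes tested) for 42 of the genes named by rule, 40 with a lower value at 1 h and 2 with a higher one. Besides Tbc1d23, 144 genes named by rule were tested. Over all genes tested 355 (2.48%) were called, 260 with a lower value and 95 with a higher one. Many of the named genes were picked by the size of their difference at 1 h, a part of the tested value. The counts here therefore describe the choice as well. Of the 40, 32 were below the control at 1 h, 6 above it and 2 not called. The sign of the line difference turned between the times for 15 of the 42. For 14 of the 42 the probe was not well above background on all arrays of both lines at 0 h, so those values depend on signal near background. All values below are log2.

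Cytokines and chemokines held Il1a at -7.66, Cxcl11 at -5.93, Ifnb1 at -5.11, Ccl4 at -4.01, Il1b at -3.96, Il6 at -3.80, Cxcl10 at -3.72, Cxcl2 at -2.70, Ccl3 at -1.92, Tnf at -1.82, Ccl2 at -1.57 and Ccl5 at -1.49. Early factors and feedback genes held Dusp8 at -3.33, Dusp1 at -3.23, Egr3 at -3.11, Myc at -3.10, Socs1 at -2.66, Nfkbiz at -2.20, Nfkbie at -1.91, Jun at -1.83, Ier3 at -1.77, Tnip3 at -1.66, Socs3 at -1.16 and Tnfaip3 at -1.08. Receptors, adaptors and surface genes held Flrt3 at -7.18, Olr1 at -5.41, Cd80 at -1.68, Cd274 at -1.65, Nod2 at -1.63, Fas at -1.50, Tlr2 at -1.37, Ticam1 at -1.22 and Irak2 at -0.84. The remaining genes were Ptgs2 at -6.21, Isg15 at -3.24, Slpi at -2.26, Gbp3 at -2.15, Srxn1 at -1.77, Insig1 at -1.22 and Cyp51 at -0.58. Higher at 1 h were Stat2 at 0.88 and Rgs2 at 2.67. The 3 values of largest size were those of Il1a, Flrt3 and Ptgs2, and neither line measured Il1a or Flrt3 at 0 h.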

How the results depend on the processing

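The count of genes different between the lines at 1 h (6865) was 3006 with median scaling. It was 5889 to 6856 without one array of the 6 in turn, 7709 without all arrays of Tbc1d23 replicate 3, and 5253 to 7516 under the other alternatives. The count for the difference between 1 h and 0 h (355) was 72 with median scaling, 547 with a slide-run block, 228 in the shared run, 901 with the slide as a random block and 294 to 343 without one array. The Tbc1d23 transcript at 1 h turned to 0.012 with the mean of probes, 0.206 with a slide-run block and 0.189 in the shared run, and was -0.323 to -0.042 without one array of the 6. Fos at 1 h turned to -0.024 with quantile normalization, -0.018 with the deposited values and -0.091 without CAT 1 h replicate 1 (-0.091 to 0.295 without one array), and Tnf at 1 h to -0.009 with median scaling. Causes were not tested. For named genes under the alternatives 2807 values kept their direction and side of the threshold, 38 lost the call, 3 gained it and 4 turned. Beside those given above these were S100a8 with normexp background correction (0.08) and in the shared run, Snx1 under 6 alternatives (0.33 to 0.85, 3 of them without Tbc1d23 1 h replicate 1, Tbc1d23 1 h replicate 2 or CAT 1 h replicate 3), Tbc1d24 under 2 (0.32 and 0.59) and Top2a with the mean of probes (-0.73).

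The labels do not say whether the replicate numbers pair the samples, and the main fit did not pair them. Same-numbered arrays of the 2 lines deviated from their group means with correlations of -0.203, -0.234 and -0.222. Arrays with different numbers gave 0.011 to 0.189. Deviations from a mean of 3 arrays depend on one another, so these values cannot decide whether the numbers pair the samples. With the replicate number as a block 7516 genes were called, and 427 for the difference between 1 h and 0 h. No interaction can be fitted with the 6 arrays at 1 h alone. Bounds and genes only partly above background rest on dim signal.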
